A study of Homo sapiens with 4 samples.

Results

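The metalloproteases and their inhibitors described here are 35 genes: matrix metalloproteases (MMPs), ADAM and ADAMTS proteases, the tissue inhibitors of metalloproteases (TIMPs), the membrane-anchored inhibitor RECK, neprilysin (MME) and basigin (BSG). They were taken by gene symbol from the platform annotation, in which they have 96 probe sets, out of 19775 genes with 41097 probe sets.

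The study profiled the human line PC14, derived from a non-small-cell lung cancer, after cells had been sorted by fluorescence, first for E-cadherin and then for CD133. E-cadherin is the adhesion protein of epithelial cells, and CD133, the product of PROM1, marks stem-like cells in several cancers. The 4 subpopulations were E-cadherin-high CD133-high, labelled epithelial and stem-like; E-cadherin-low CD133-high, labelled mesenchymal and stem-like; E-cadherin-high CD133-low, labelled epithelial and not stem-like; and E-cadherin-low CD133-low, labelled mesenchymal and not stem-like. All 4 came from the same line, grown at 37 °C in 5% CO2, and the labels name no drug treatment. The CD133 sort read green fluorescent protein driven by the P1 promoter of the CD133 gene, brought in with a lentivirus, so the CD133 groups are defined by that promoter and not by the surface protein. Each subpopulation was measured on 1 array. No difference below therefore has a replicate check, and precision is limited by there being 4 arrays.

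MMPs are zinc-dependent proteases that cut collagens, other matrix proteins and cell-surface proteins. They are made as inactive precursors and are held in check by TIMPs. ADAMs are membrane-bound relatives that release the outer parts of growth factors, adhesion molecules and receptors, and ADAMTS proteases are secreted enzymes that mainly cut proteoglycans. In carcinomas much of the MMP supply is known to come from stromal cells, while tumour cells can make some members themselves.

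Signals are the deposited array intensities on a linear scale. A floor was set on each array at the 50th percentile of the probe sets, which lay at signals of 53.7 to 60.3, and lower signals were set to it before ratios were taken. Of several probe sets of a gene, that with the highest mean log2 signal was used. Between 12309 and 12459 genes per array had a signal above that floor. CDH1, the gene for E-cadherin, read 5548 and 3546 in the E-cadherin-high subpopulations (CD133-high first) and 347.0 and 527.8 in the E-cadherin-low ones, in the direction of the sort. PROM1 read 4.79 to 29.7 and was below it on all 4 arrays, so the CD133 sort could not be checked on its own gene. Among the markers of lung cancer epithelium EPCAM, KRT8, KRT18, KRT7 and CDH1 lay above the floor on all 4 arrays and KRT19 on none.

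Of the 35 members, 16 lay above the floor on all 4 arrays, 12 on some of them and 7 on none. The 7 were MMP3 and MMP10 (stromelysins), MMP7 (matrilysin), the membrane-bound MMP17 and MMP24, the inhibitor TIMP4 and the protease ADAM19, with signals of 2.89 to 59.6 by the probe set used. A second probe set of ADAM19 read 64.3 in E-cadherin-high CD133-low cells, above the floor of that array, and 17.3 to 43.5 elsewhere. The other 28 are called measured below. Of these, 11 differed by at least 2-fold in at least 1 of the 4 pairs of arrays that differ in a single sorted marker, and 17 differed by less in all 4 pairs. The 11 are 39.3% of the measured members, against 20.6% of all measured genes. A member that passed the floor only through the array on which it is high had to differ between arrays, so these counts are descriptions.

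**Figure D1:**
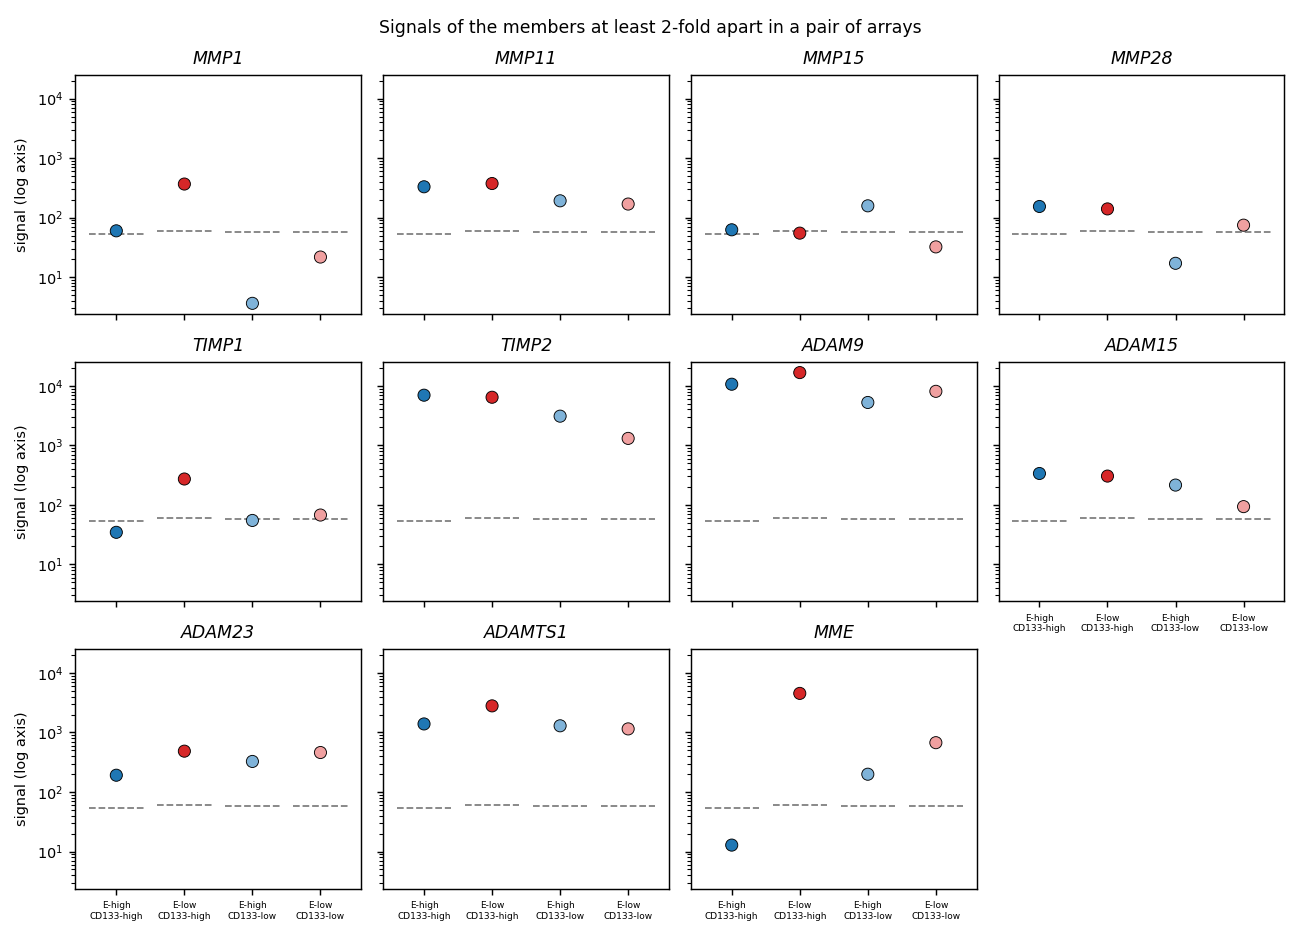
Signal (log axis) of the 11 members that differed by at least 2-fold in a pair of arrays, with 1 point per array and the floor of each array as a dashed line. MME spans 12.8 to 4532. MMP1 and TIMP1 are clearly above the floor only in E-cadherin-low CD133-high cells. TIMP2 and ADAM9 are higher in CD133-high cells in both pairs.

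The E-cadherin comparison was led by MME, the membrane peptidase neprilysin (CD10), which cleaves small signalling peptides outside the cell. MME read 12.8 in E-cadherin-high CD133-high cells, 4532 in E-cadherin-low CD133-high cells, 198.9 in E-cadherin-high CD133-low cells and 673.4 in E-cadherin-low CD133-low cells. Within the CD133-high pair of arrays the E-cadherin-low signal was at least 84.4-fold higher, with the E-cadherin-high array at the floor. Within the CD133-low pair the E-cadherin-low signal was 3.39-fold higher. The second probe set of MME read 10.1, 3415, 118.7 and 569.5 in the same order of arrays, with log2 ratios of at least 5.99 and of 2.26.

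MME was 1 of 28 measured members at least 2-fold higher in E-cadherin-low cells in both pairs, against 0.476% of all measured genes, and 0 members were at least 2-fold lower in both, against 0.54%. Opposite directions of at least 2-fold in the 2 E-cadherin pairs were seen for 0 members and for 0.234% of all measured genes. The summed signal of the epithelial markers was 29571 and 31219 in the E-cadherin-high and 15719 and 15199 in the E-cadherin-low subpopulations. This sum includes CDH1, whose protein was sorted on. EPCAM, KRT8 and KRT18 were also lower in E-cadherin-low cells in both pairs. KRT7 was higher in E-cadherin-low cells of the CD133-high pair, at 115.7 against 64.3. The part of these markers in the signal of MME was not tested. An additive limma fit over all measured genes, which assumes that the effects of both markers add up and has 1 residual degree of freedom, put the E-cadherin effect on MME at a log2 change of 4.08 ± 1.02 (SE), with a Benjamini-Hochberg adjusted p of 0.532. That fit called 0 of 14083 genes for E-cadherin at an adjusted p under 0.05, while 961 genes, 4 of them members with the higher signal in E-cadherin-low cells, had an unadjusted p under 0.05. The 2 E-cadherin ratios of MME lie far apart, at 6.40 as a bound and 1.76 on the log2 scale, which such a fit counts as error. The limma fits used the floored signals and took values at the floor as measured. The fitted effect on MME is therefore also a bound. Both probe sets of MME carry an ID that marks them as shared between transcripts, and without such probe sets MME had no value.

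The CD133 ratios of MME pointed in opposite directions in the E-cadherin states. Among E-cadherin-high cells the CD133-high signal of MME was lower by at least 3.70-fold, and among E-cadherin-low cells it was 6.73-fold higher. The second probe set gave the same directions, with log2 ratios of at most -1.14 and of 2.58. Opposite directions of at least 2-fold held for 1 of 28 measured members and for 0.227% of all measured genes. With the floor at the 65th percentile the first log2 ratio was -0.38, below 2-fold.

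The promoter of MME is shown because this member had the widest range of signals. The 250 bases before its RefSeq start site (GRCh38.p14, chr3:155079422-155079671, plus strand) are given 5′ to 3′, with the letters of the motif GGGCGG of the factor SP1, here on the other strand and overlapping, in capitals.
MME: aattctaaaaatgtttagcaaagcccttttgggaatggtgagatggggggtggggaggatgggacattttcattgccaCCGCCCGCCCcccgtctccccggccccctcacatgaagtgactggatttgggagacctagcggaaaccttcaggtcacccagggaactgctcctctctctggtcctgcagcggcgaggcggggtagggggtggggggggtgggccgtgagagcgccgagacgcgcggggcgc
Both strands were searched for 6 motifs: SP1 (GGGCGG), AP-1 (TGANTCA), ETS (AGGAAG), RUNX (TGTGGT), the E-boxes CAGGTG and CAGGTA to which ZEB1 binds, and the TATA box (TATAAA). In MME only SP1 letters were found, and 42.6% of 35114 RefSeq promoters hold these in the same window. ZEB1, a repressor of CDH1, read 168.0 and 64.8 in the E-cadherin-high and 1301 and 1056 in the E-cadherin-low subpopulations, each time CD133-high cells first.

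The collagenase MMP1 and the inhibitor TIMP1 were high on a single array. MMP1, which cuts fibrillar collagen, read 60.1 in E-cadherin-high CD133-high, 367.4 in E-cadherin-low CD133-high, 3.64 in E-cadherin-high CD133-low and 21.8 in E-cadherin-low CD133-low cells. Its signal on the E-cadherin-low CD133-high array was 6.11-fold above the next highest array, and both CD133-low arrays were at the floor. TIMP1, a secreted inhibitor of most MMPs, read 34.5, 271.6, 54.7 and 67.4 in the same order. It was 4.03-fold above the next highest array, E-cadherin-low CD133-low, and at the floor on both E-cadherin-high arrays.

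With MME, these were 3 of 28 measured members with a signal at least 4-fold above that on each of the other arrays, all on the E-cadherin-low CD133-high array, where this held for 0.391% of all measured genes. With the floor at the 50th percentile no measured member stood apart on another array or was at least 4-fold below all others, for which the shares of all measured genes were small. Such high signals were found for 0.0284% of them on the E-cadherin-high CD133-high, 0.0142% on the E-cadherin-high CD133-low and 0.0497% on the E-cadherin-low CD133-low array. Such low signals were found for 0.0142% and 0.0568% on the E-cadherin-high and E-cadherin-low arrays of CD133-high cells, and for 0.0568% and 0.0852% on those of CD133-low cells. MMP1 and TIMP1 have 1 probe set each, so no second probe set could be compared. The signal of TIMP1 was under 4-fold above the next array when the arrays were given equal medians or quantile normalized, and that of MMP1 and TIMP1 when the floor was at the 65th percentile.

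The promoter of TIMP1 is shown as that of an inhibitor high on the same array as a protease that it inhibits. Capitals mark 4 motif matches in the 250 bases before the start site (GRCh38.p14, chrX:47582186-47582435, plus strand): SP1 on the other strand at the first and last match, and between them the ETS letters AGGAAG and the RUNX letters TGTGGT.
TIMP1: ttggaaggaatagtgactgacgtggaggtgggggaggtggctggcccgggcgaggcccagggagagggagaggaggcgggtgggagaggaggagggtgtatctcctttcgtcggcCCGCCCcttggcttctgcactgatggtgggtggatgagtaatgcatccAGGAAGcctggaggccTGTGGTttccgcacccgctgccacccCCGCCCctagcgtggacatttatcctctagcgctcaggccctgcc
The ETS letters occur in 28.7% and the RUNX letters in 11.0% of all promoters in this window, so neither is rare. Of the 35 members, 21 have an entry in the RefSeq promoter table, and 14, MMP1, TIMP2 and ADAM9 among them, do not. AP-1 letters were found in 2 of these 21 promoters, those of MMP7 and MMP10, against 6.57% of all promoters. The same 2 hold a TATA box, against 10.7% of all promoters. Both genes were below the floor on all 4 arrays.

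MMP1 lies on chromosome 11 in a run of 9 neighbouring MMP genes, in the RefSeq order MMP7, MMP20, MMP27, MMP8, MMP10, MMP1, MMP3, MMP12 and MMP13. Of the 9, 3 exceeded the floor on 1 array or more: MMP1, MMP27 and MMP13. MMP10, the neighbour of MMP1, read 8.82 in E-cadherin-high CD133-high, 59.6 in E-cadherin-low CD133-high, 11.5 in E-cadherin-high CD133-low and 22.9 in E-cadherin-low CD133-low cells. Its highest signal was on the array on which MMP1 was highest, just under that array's floor of 60.3. MMP13, the other collagenase among the members, was above the floor only in E-cadherin-low CD133-low cells, at 71.4. The neighbours did not show a common signal above the floor.

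Some genes of other cell types were high on the same array as MMP1, TIMP1 and MME. Of 8 fibroblast markers, 5 were measured, and COL1A2 read 434.7 in E-cadherin-low CD133-high cells against 18.6 to 65.1 elsewhere. LUM read 625.9 and 1390 in the E-cadherin-high and E-cadherin-low subpopulations of CD133-high cells, and 227.8 and 130.9 in those of CD133-low cells. DCN read 170.8, 358.4, 76.1 and 52.9 in the same order. Over the 5 measured markers the median log2 ratio was 1.07 for E-cadherin in CD133-high cells and 2.65 for CD133 in E-cadherin-low cells. The brightest genes of the list went the other way: COL3A1 read 19767 on this array against 29221 in E-cadherin-high CD133-high cells, and COL1A1 1935 against 2087. The defining markers PDGFRA, PDGFRB and THY1 were below it on all 4 arrays, and the summed signal of the list was 23961 on this array, between 17850 and 32245 on the others. Of 5 leukocyte markers on the array, 3 were measured and CD14 and LYZ were below the floor on all arrays, with summed signals of 472.3 to 1354. Endothelial markers summed to 148.3 to 217.6, with VWF, CDH5 and KDR below the floor on all arrays, and the erythroid marker HBB read 80.5 to 131.0. The part of these genes in the signals of MMP1, TIMP1 and MME was not tested. In such pooled cells, fewer cells that express a gene and less RNA per cell cannot be told apart.

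The CD133 comparison had TIMP2 and ADAM9 higher in CD133-high cells in both E-cadherin states. TIMP2, a secreted inhibitor that also takes part with MMP14 in the activation of the MMP2 precursor, read 6949 in E-cadherin-high CD133-high, 6416 in E-cadherin-low CD133-high, 3088 in E-cadherin-high CD133-low and 1306 in E-cadherin-low CD133-low cells. Its signal was higher in CD133-high cells by 2.25-fold in the E-cadherin-high pair and 4.91-fold in the E-cadherin-low pair. ADAM9, a membrane protease that releases cell-surface proteins, read 10621, 16660, 5244 and 8070 in the same order. It was 2.03-fold and 2.06-fold higher in CD133-high cells, E-cadherin-high pair first.

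These were 2 of 28 measured members at least 2-fold higher in CD133-high cells in both pairs, against 2.45% of all measured genes, and 0 were lower in both, against 1.12%. In the additive limma fit the CD133 effect on TIMP2 was a log2 change of 1.73 ± 0.33 (SE) with an adjusted p of 0.102, and that on ADAM9 was 1.03 ± 0.23 with an adjusted p of 0.129, so neither passed 0.05. That fit called 55 of 14083 genes for CD133 and 0 members, of which 6 of 28 had an unadjusted p under 0.05, all with the higher signal in CD133-high cells, beside 2345 of the 14083 genes in either direction. Whether limma called TIMP2 and ADAM9 depended on how it estimated the spread. With a trend of the spread on intensity, a setting added after these results had been seen, the adjusted p was 0.0320 for TIMP2 and 0.0271 for ADAM9, and 289 genes were called. The leukocyte gene PTPRC and the fibroblast genes DCN and LUM were also at least 2-fold higher in both CD133-high subpopulations, PTPRC at 1246 and 1102 against 345.6 and 505.0, and their part in the signals of TIMP2 and ADAM9 was not tested. The other markers of these lists did not reach 2-fold in either CD133 pair, apart from COL1A2 in the E-cadherin-low pair. COL1A1 and COL3A1 were 1.20-fold to 1.28-fold higher in CD133-high cells, CD3E and CSF1R had log2 ratios of -0.22 to 0, and CD14 and LYZ were below the floor. The ratios of ADAM9 lie just past 2-fold, and with equal array medians that in E-cadherin-low cells was 0.97 on the log2 scale.

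The probe sets of TIMP2 gave one picture and those of ADAM9 did not. The other probe sets of TIMP2 had log2 ratios of CD133-high over CD133-low cells of 0.84 and 1.11 in E-cadherin-high cells and of 2.52 and 2.87 in E-cadherin-low cells, and all 3 thus had the larger ratio in E-cadherin-low cells. All 3 also had a signal in E-cadherin-low CD133-low cells below that of the other arrays. The other probe sets of ADAM9 had 0.30 and -0.67 in E-cadherin-high cells and 1.36 and 0.36 in E-cadherin-low cells. As the mean over its probe sets, ADAM9 had log2 ratios of 0.22 and 0.92 and was not at least 2-fold higher in either pair.

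**Figure D2:**
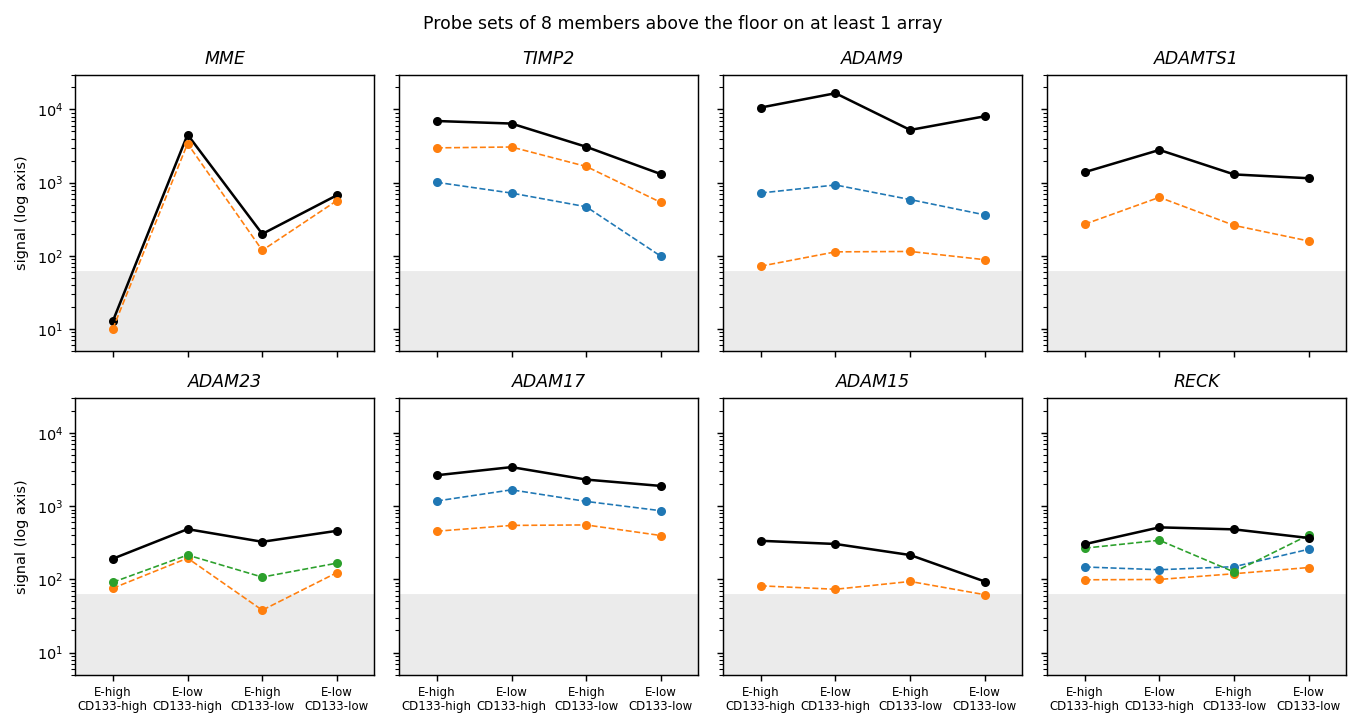
Signals (log axis) on the 4 arrays of all probe sets above the floor on at least 1 array, for 8 members; the black line is the probe set with the highest mean, coloured dashed lines are the others, and grey marks signals below the highest floor. The lines run alike in MME, TIMP2 and ADAMTS1 and cross or diverge in ADAM9 and RECK.

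Beyond these genes, the 2 CD133 pairs differed in how many members they held. Among E-cadherin-low cells, 8 of 28 measured members were at least 2-fold higher in CD133-high cells, against 8.11% of all measured genes, and 0 were lower, against 4.27%. The 8 were MMP1, MMP11, TIMP1, TIMP2, ADAM9, ADAM15, ADAMTS1 and MME. Among E-cadherin-high cells 3 were higher, MMP28, TIMP2 and ADAM9, against 5.04%, and 2 were lower, MMP15 and MME, against 3.24%. Over the measured members the log2 ratios had a median of 0.43 in E-cadherin-low and 0.00 in E-cadherin-high cells, beside 0.00 over all measured genes in both. Whether these pairs differ could not be tested with 1 array per subpopulation. The median in E-cadherin-low cells was 0.10 as the mean over probe sets.

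The E-cadherin pairs differed in the same way, since they share those arrays. Among CD133-high cells, 5 of 28 measured members were at least 2-fold higher in E-cadherin-low cells, against 3.81% of all measured genes, and 0 were lower, against 2.53%. The 5 were MMP1, TIMP1, ADAM23, ADAMTS1 and MME. Among CD133-low cells MME alone was higher, against 2.63%, and MMP15, TIMP2 and ADAM15 were lower, against 2.87%. The medians were 0.10 and -0.16. The E-cadherin-low CD133-high array held the highest signal of 15 of 28 measured members, against 30.2% of all measured genes, and the E-cadherin-low CD133-low array that of 2, against 24.1%. The E-cadherin-high CD133-high array held that of 6, against 19.7%, and the E-cadherin-high CD133-low array that of 5, against 25.9%. Highest and lowest arrays were found after signals below the floor had been set to it. The lowest floored signal lay on the E-cadherin-low CD133-low array for 11 members, against 27% of all measured genes. It lay on the E-cadherin-high CD133-high array for 11, against 28.2%. For the other members it lay on the E-cadherin-high CD133-low array (4, against 20.6%) or the E-cadherin-low CD133-high array (2, against 24.2%). The floors differed, from 53.7 on the E-cadherin-high CD133-high to 60.3 on the E-cadherin-low CD133-high array. Genes at the floor on several arrays therefore counted on the array with the smaller floor. That need not be the array with the smallest deposited signal, as for MMP1 and MMP13.

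**Figure D3:**
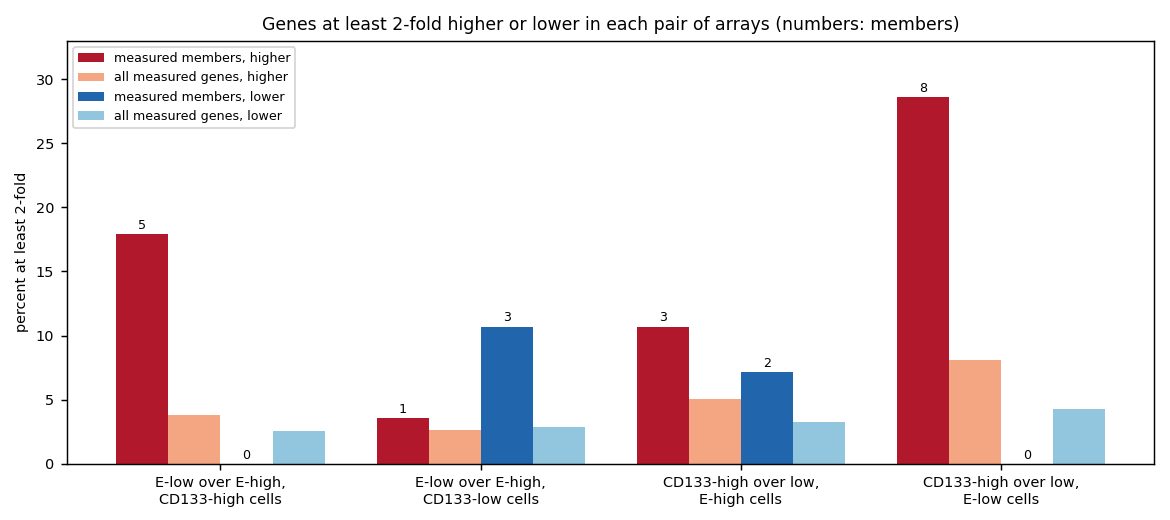
Percent of the 28 measured members (dark bars, with their number) and of all 14083 measured genes (light bars) at least 2-fold higher or lower in each of the 4 pairs of arrays. The share of members is highest, 8 of 28, for higher signals in CD133-high cells among E-cadherin-low cells.

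**Figure D4:**
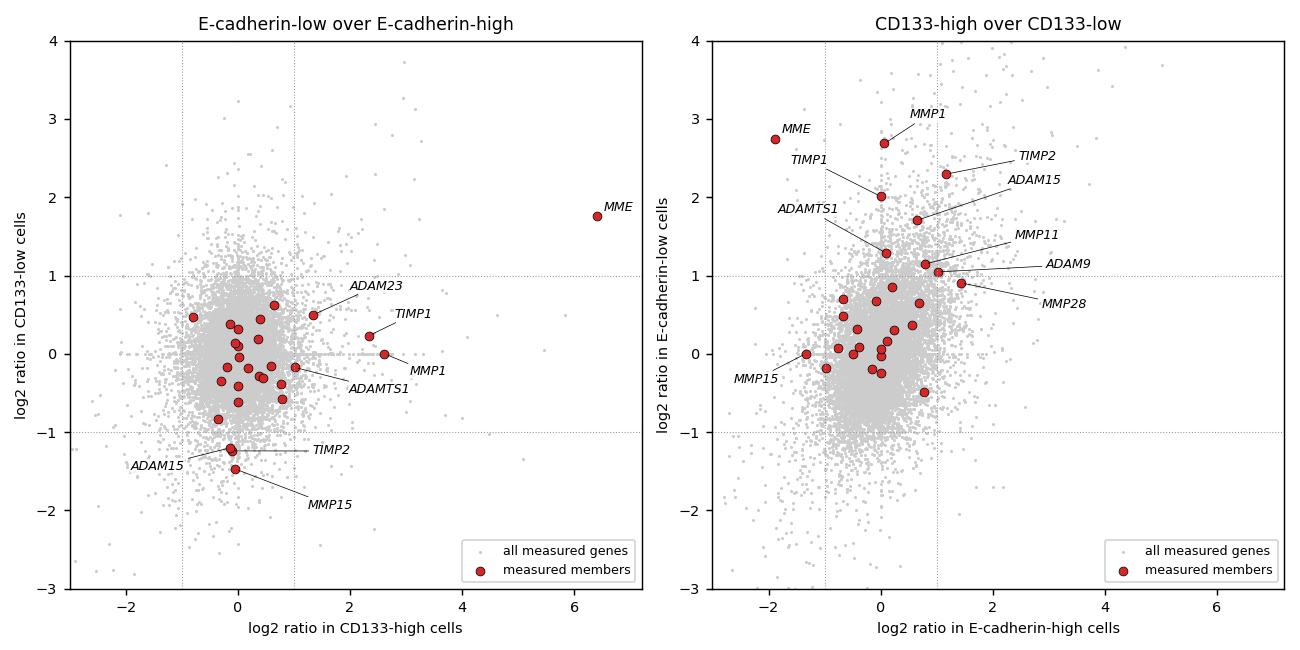
Log2 ratio in one pair (horizontal axis) against the other pair (vertical axis) for the E-cadherin comparison (left) and the CD133 comparison (right), with all measured genes in grey, the 28 measured members in red and dotted lines at 2-fold; genes beyond the axes are not drawn. MME lies past 2-fold in both pairs on the left and in opposite directions on the right, and TIMP2 and ADAM9 lie past 2-fold in both pairs on the right.

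Of the secreted MMPs other than MMP1, MMP11 (stromelysin-3, which is activated inside the cell by furin) read 330.4 in E-cadherin-high CD133-high, 374.8 in E-cadherin-low CD133-high, 192.0 in E-cadherin-high CD133-low and 169.4 in E-cadherin-low CD133-low cells. MMP11 was 1.72-fold and 2.21-fold higher in CD133-high cells, E-cadherin-high pair first. A second probe set of MMP11 had a log2 ratio of 0.16 in E-cadherin-high cells and was at the floor on both E-cadherin-low arrays. MMP28 (epilysin) read 154.2, 140.3, 17.1 and 74.8 in the same order, and was at least 2.69-fold and 1.87-fold higher in CD133-high cells. A second probe set of MMP28 went the other way in E-cadherin-low cells, with a log2 ratio of at most -0.88. The remaining probe sets of MMP11 and MMP28 were below the floor on all arrays.

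The gelatinase MMP9, which cuts denatured and basement-membrane collagen, read 212.1 to 271.7 with all 4 log2 ratios between -0.20 and -0.16. The other gelatinase, MMP2, read 92.4 in E-cadherin-low CD133-high and 85.2 in E-cadherin-high CD133-low cells and was at the floor on the other arrays. MMP19 read 70.5 to 125.3, with log2 ratios for E-cadherin of -0.35 and -0.83, CD133-high pair first. The other probe sets of MMP2 and MMP19 were below the floor on all arrays. None of these genes reached 2-fold in any pair.

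Of the 5 membrane-bound MMPs, 3 were measured. MMP14 (MT1-MMP), the main activator of the MMP2 precursor, read 92.8 to 139.6 with log2 ratios of -0.43 to 0.59 by its brightest probe set. Another probe set of MMP14 exceeded the floor only in E-cadherin-low CD133-low cells, at 86.6, and the others were below the floor on all arrays. MMP15 read 62.6 in E-cadherin-high CD133-high, 55.0 in E-cadherin-low CD133-high, 158.2 in E-cadherin-high CD133-low and 32.3 in E-cadherin-low CD133-low cells. Only in E-cadherin-high CD133-low cells was MMP15 well above the floor, at least 2.77-fold above E-cadherin-low CD133-low cells and 2.53-fold above E-cadherin-high CD133-high cells. MMP16 read 187.9, 248.1, 116.8 and 158.4 in the same order. Its log2 ratios were 0.69 and 0.65 for CD133 and 0.40 and 0.44 for E-cadherin, near equal in each case and all below 2-fold. The other probe sets of MMP15 and MMP16 were below the floor on all arrays, so the values of both genes rest on a single probe set each.

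The remaining inhibitors showed no such pattern. TIMP3, an inhibitor that binds to the matrix and also blocks ADAM17, lay above the floor on the CD133-low arrays only by its brightest probe set. That probe set read 35.2 in E-cadherin-high CD133-high, 17.0 in E-cadherin-low CD133-high, 104.9 in E-cadherin-high CD133-low and 68.4 in E-cadherin-low CD133-low cells. Its log2 ratios for CD133 were at most -0.97 and -0.18. Other probe sets of TIMP3 exceeded the floor in E-cadherin-high CD133-low cells only, at 66.4 and 104.5, or on no array. RECK, a membrane-anchored inhibitor, has 4 probe sets above the floor that gave different orders of the arrays: by the brightest its log2 ratios for CD133 were -0.67 in the E-cadherin-high pair and 0.48 in the E-cadherin-low pair, and by another they were 1.08 and -0.24. No direction was drawn for RECK.

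Among the ADAMs, ADAM10 and ADAM17, the main proteases that release Notch, cadherins and growth factor precursors, stayed below 2-fold in all 4 pairs. ADAM10 read 3700 to 4548 with log2 ratios of -0.05 to 0.30 by its brightest probe set. Another probe set of ADAM10 had -0.56 for E-cadherin in CD133-high cells and -0.68 for CD133 in E-cadherin-low cells. A further probe set had -0.34 to 0.37. ADAM17 read 2645 in E-cadherin-high CD133-high, 3417 in E-cadherin-low CD133-high, 2307 in E-cadherin-high CD133-low and 1889 in E-cadherin-low CD133-low cells, and its highest ratio was 1.81-fold, for CD133 in E-cadherin-low cells. ADAM15, which carries an integrin-binding motif, read 336.2, 304.1, 214.8 and 93.3 in the same order. ADAM15 was 1.56-fold and 3.26-fold higher in CD133-high cells, and its lowest signal lay on the array on which TIMP2 was lowest. The second probe set of ADAM15, near the floor, had log2 ratios of -0.20 and 0.25.

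ADAM8 lay near the floor at 58.1 to 104.6, and ADAM12 was above it on 1 array, at 61.6. ADAM22 and ADAM23, neuronal adhesion molecules that lack protease activity, were above the floor on all 4 arrays. ADAM23 read 191.2 in E-cadherin-high CD133-high, 485.2 in E-cadherin-low CD133-high, 326.0 in E-cadherin-high CD133-low and 460.3 in E-cadherin-low CD133-low cells. ADAM23 was 2.54-fold and 1.41-fold higher in E-cadherin-low cells, CD133-high pair first. Another probe set of ADAM23 was at least 2-fold higher in both pairs, with log2 ratios of 1.36 and at least 1.11, and a further one had 1.24 and 0.63. For ADAM22 the log2 ratios were -0.05 to 0.56 by its brightest probe set. Other probe sets of ADAM22 differed, with 0.95 and -0.65 for E-cadherin in CD133-low cells.

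ADAMTS1, which cuts the proteoglycans aggrecan and versican, read 1391 in E-cadherin-high CD133-high, 2797 in E-cadherin-low CD133-high, 1294 in E-cadherin-high CD133-low and 1148 in E-cadherin-low CD133-low cells. One array was high and the other 3 were close together: 2.01-fold above E-cadherin-high CD133-high and 2.44-fold above E-cadherin-low CD133-low cells. The second probe set of ADAMTS1 gave log2 ratios of 1.22 and 1.99 for the same pairs. ADAMTS6 read 278.5 to 442.5 with its highest signal on the same array and ratios below 2-fold, by its brightest probe set. The other probe sets of ADAMTS6 exceeded the floor only in E-cadherin-high CD133-low cells, at 73.0 and 62.8. ADAMTS5 and ADAMTS9 read at most 75.9 and lay near or below the floor. BSG, a membrane protein that induces MMPs in neighbouring cells, read 2103, 1715, 1952 and 1537 in the order given for ADAMTS1, with log2 ratios of -0.34 to 0.16.

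**Figure D5:**
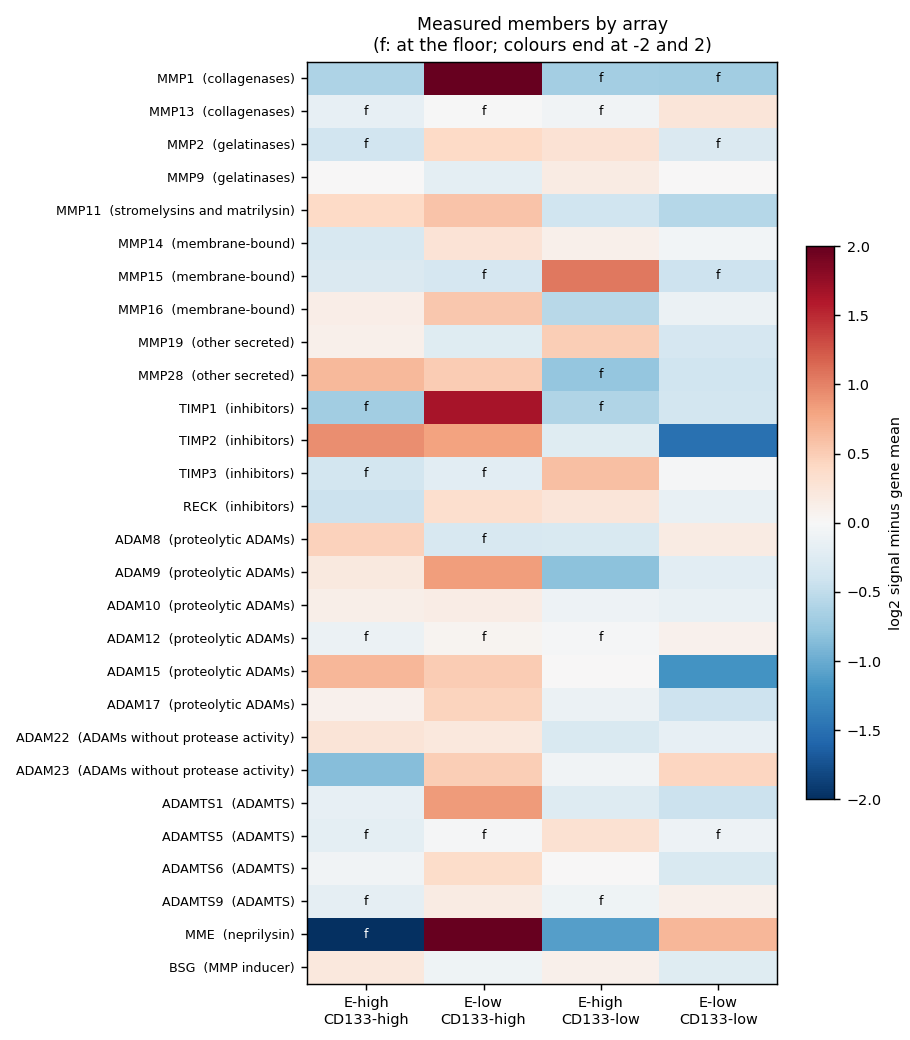
Log2 signal of the 28 measured members on each array minus the mean of the gene over the 4 arrays, in colour from -2 to 2, with f where the array was at the floor. The column of E-cadherin-low CD133-high cells holds the highest signal of 15 members, and that of E-cadherin-low CD133-low cells the highest of 2.

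Of genes around these proteases, from lists of related families and partners, at most 2 per list passed 2-fold the same way in both pairs. Over all measured genes, the shares for CD133 were 2.45% (higher) and 1.12% (lower). For E-cadherin they were 0.476% (higher) and 0.54% (lower). In lists of at most 19 measured genes, 1 gene is already a larger share than these. Whether the lists differ from all measured genes was not tested. Of 36 other MMP, ADAM and ADAMTS genes on the array, 19 were measured, and 2 were higher in CD133-high cells, ADAM21 (2.48-fold and 3.44-fold, E-cadherin-high pair first) and ADAMTS13, which cuts von Willebrand factor (at least 2.47-fold and 2.04-fold). Of 17 other metalloproteases, 10 were measured, and TLL2, a relative of the procollagen protease BMP1, was lower in CD133-high cells, with log2 ratios of -1.59 and -1.29. In the E-cadherin comparison 0 genes of both lists passed in either direction.

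Of 17 measured activators and partners, PLAT, the tissue plasminogen activator, was higher in CD133-high cells, by at least 2.10-fold and at least 10.9-fold. PLAT read 120.3 in E-cadherin-high CD133-high, 620.0 in E-cadherin-low CD133-high, 8.73 in E-cadherin-high CD133-low and 26.7 in E-cadherin-low CD133-low cells, so that it was highest on the array on which MMP1 was highest. Of 9 measured protease inhibitors of other families, TFPI2, which inhibits plasmin and has been described as an inhibitor of MMPs, read 121.2, 14974, 1251 and 35.6 in the same order. TFPI2 passed 2-fold in opposite directions in both comparisons. Its CD133 ratios, -3.37 and at least 8.04 on the log2 scale, had the same signs as those of MME.

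Of 16 measured proteins that ADAMs release, HBEGF, a growth factor precursor, was lower in E-cadherin-low cells, with log2 ratios of -1.25 and -1.54, and lower in CD133-high cells, with -3.20 and -2.91. Of 17 measured transcription factors known from MMP promoters, the AP-1 subunit FOSL1 was higher in CD133-high cells, by at least 2.22-fold in the E-cadherin-high pair and at least 5.16-fold in the other. FOSL1 read 127.4 and 294.2 on the CD133-high arrays, E-cadherin-high first, and was at the floor on both CD133-low arrays. ATF3, a stress-induced factor, passed 2-fold in opposite directions in the E-cadherin pairs, with log2 ratios of 1.24 and -1.09, CD133-high pair first. The median log2 ratio of these factors for CD133 was 0.10 in the E-cadherin-high pair and 0.74 in the E-cadherin-low pair, beside 0.00 over all measured genes.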

How the data were processed

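Biotin-labelled total RNA of 4 sorted PC14 subpopulations was measured on 4 one-colour Affymetrix arrays, 1 per subpopulation. The deposited values are intensities per probe set on a linear scale, for 54675 probe sets, 62 of them controls. The submitters' processing notes name MAS5 without a version. The mean after removal of the top and bottom 2% was 499.9 on each array, which shows a common scaling target for the deposited intensities. The table holds no detection calls.

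Symbols came from the platform annotation: 41097 probe sets had 1 symbol, 1801 several (not used) and 11777 were unnamed here. The gene IDs of 41043 matched RefSeq (GRCh38.p14), and 0 symbols differed. Genes above the floor of any array counted as measured (14083 of 19775). A ratio with 1 of its arrays at the floor is a bound ("at least", or "at most" for a negative log2 ratio); with both arrays at the floor its log2 was set to 0. A comparison has 2 pairs that share no array, and a gene counted when it was at least 2-fold the same way in both. This rule includes no test.

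The members, gene lists, motifs and rules were chosen with earlier results of these data known. All 35 members may be named; of each related list at most 4 genes that passed the rule are named, with CDH1, PROM1 and ZEB1 as checks and the fixed markers of other cell types. MMP8, MMP12, MMP20 and MMP27 are named as neighbours of MMP1. The alternatives changed the scaling (quantile normalization, equal array medians), the floor (none, 25th or 65th percentile), the fold threshold (1.5 or 3) or the probe sets (their mean, or without those marked as shared). The test set down for comparison was an additive limma fit with plain empirical Bayes moderation, which was run first and called 0 members. A trend of the spread on intensity, a robust prior and both together were then run, and were thus chosen after seeing the data. These 4 settings recovered similar numbers of planted genes on simulated data, which gives no reason to prefer one. The planted effects were larger than those of TIMP2 and ADAM9 and lay in genes well above the floor. The simulation therefore cannot decide between the settings for effects of that size. The simulated noise was the spread pooled over genes of like intensity; it replaced a spread drawn gene by gene, under which limma had recovered 0 planted genes, so the recovery holds for the pooled noise only. The counting rule was also tested on simulated data. The software was Python 3.11.15 with numpy 2.4.6, pandas 2.3.3 and matplotlib 3.10.9, and R 4.3.3 with limma 3.58.1.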

Additional observations from a re-analysis of the deposited data

Results flagged for a closer look

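MME had CD133 log2 ratios of opposite sign in the 2 E-cadherin states, at most -1.89 for the E-cadherin-high pair and 2.75 for the E-cadherin-low pair. The difference between the states, at least 4.64 on the log2 scale, was not tested, since each subpopulation has 1 array.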

How the results depend on the processing

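The member at least 2-fold higher in E-cadherin-low cells in both pairs, MME, was joined by MMP1 without a floor and by ADAM9 at a 1.5-fold threshold (2 members each). The count was 0 without probe sets marked as shared, where MME had no value, and 0 in the additive limma fit under all 4 settings of its spread, where 3 or 4 members had an unadjusted p under 0.05 in that direction. For the 2 members higher in CD133-high cells, the count was 1 with equal array medians and 1 as the mean over probe sets (TIMP2 each time), 1 without shared probe sets (ADAM9), 6 at a 1.5-fold threshold, which 6.63% of all measured genes passed, and 0 at a 3-fold threshold. Without a floor and with the floor at the 25th percentile it was 3, with MMP1 added. In the additive limma fit the count for CD133 was 0 as planned (plain) and 0 with a robust prior, and 2 (TIMP2 and ADAM9) with an intensity trend and with both. The settings other than plain were added after seeing the data. For all measured genes the 4 settings called 55, 55, 289 and 247 genes for CD133 and 0, 0, 21 and 14 for E-cadherin, in the order plain, robust, trend, both. The adjusted p of TIMP2 ran from 0.0320 to 0.102, that of ADAM9 from 0.0268 to 0.129 and that of MME from 0.318 to 0.768. The calls of TIMP2 and ADAM9 by limma therefore depend on the trend, a choice that was made with the outcome known. The count of members lower in CD133-high cells went from 0 to 1 without a floor (TIMP3) and to 2 with the floor at the 25th percentile (MMP3 and TIMP3). With the floor at the 65th percentile, 1 member stood apart on an array, MME, in place of 3. Without a floor and with the floor at the 25th percentile 4 did, among them MMP28 as at least 4-fold lower on the E-cadherin-high CD133-low array than on each of the others, and without a floor also MMP1. Of 146 recomputed ratios of named members that were at least 2-fold as reported, 124 stayed past 2-fold, 22 fell below it and 0 changed sign. Part of these could not change, so the count does not measure robustness. A ratio with both arrays above the floor is the same under a lower floor or none. A gene with a single probe set not marked as shared is the same under both choices of probe sets. Equal array medians shifted the median of all measured genes by -0.12 (log2) in the E-cadherin pair of CD133-high cells. No array could be left out and no replicate block could be fitted, since each subpopulation has 1 array; the additive fit compares each marker within levels of the other, with 1 residual degree of freedom. Signals near the floor, such as those of MMP15, MMP28 and TIMP1, limit what their ratios show.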
